A study of Homo sapiens with 40 samples.

Results

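CTCF peaks that lie in enhancers of only 1 of 2 cell states were examined in EndoC-βH3 cells, an immortalized human beta-cell line, before and after senescence. The members were chosen by position: a CTCF peak had to lie more than 2 kb from every protein-coding start site of GENCODE 44 and to overlap, by at least 1 bp, an enhancer of the senescent or of the non-senescent cells but not of both. The rule found 1491 of 51457 CTCF peaks, or 2.9%, and 3.69% of the 40396 peaks more than 2 kb from a start site. The senescent list alone held 640 members and the non-senescent list alone held 851. A further 2866 peaks away from start sites lay in enhancers of both states, and 36039 lay in no listed enhancer.

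EndoC-βH3 cells carry an excisable transgene that immortalizes them, with hTERT and SV40 large T antigen, and a tamoxifen-inducible Cre. The senescent cells had been treated with 4-hydroxy tamoxifen for 3 weeks to remove it, and the non-senescent cells are labelled control; the genotype of both is given as WT. Both states are therefore 1 cell line, and loss of the transgene, the drug treatment and senescence cannot be told apart. CTCF and H3K27ac were measured by chromatin immunoprecipitation and sequencing (ChIP-seq) in 3 libraries per state, and H3K4me1 and Rb in 2 per state, each beside an input library. H3K27ac peaks lay at the promoters of 12 of 12 beta-cell marker genes tested, INS, PDX1 and NKX2-2 among them. The series has 51489 H3K27ac peaks, and the share of all promoters with one was not computed. The count of 12 therefore says little on cell identity by itself. The lowest of these were MAFA and IAPP, where the mean H3K27ac counts were 43.6 and 204, against 13800 at NKX2-2.

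CTCF is a zinc finger protein that binds a long, oriented DNA motif and halts cohesin as it extrudes chromatin loops, and pairs of its sites often mark the boundaries of chromatin domains. Enhancers are distal elements where transcription factors bind, and active ones carry H3K4me1 and H3K27ac on the flanking nucleosomes. CTCF inside or beside an enhancer is known to help bring it to a promoter at some genes and to insulate it at others. In beta cells, enhancers bound by factors such as PDX1, NKX6-1, NEUROD1 and MAFA drive the genes of glucose sensing and insulin secretion.

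The sequences below show the best match to the 12-letter CTCF core motif, in capitals, with 20 bases on each side, read in the direction of the motif from the hg38 genome. They belong to the members with the highest CTCF signal that hold such a match, and to members near genes of beta cells, interferon signalling and growth arrest. Each is named by the gene with the nearest protein-coding start site, which need not be the gene the enhancer acts on. A match with no mismatch was present at ALPI, ENSG00000288626, FARP1, IFNAR1, FMOD, LRRK1, DBN1, TUBA1C, BTG2 and the stronger of the non-senescent INSM1 members, and the others differ from the motif at 1 letter. The windows of the senescent list were these.
ALPI, chr2:232446382-232446433, plus strand: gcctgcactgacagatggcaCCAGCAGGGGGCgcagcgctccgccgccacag
CD34, chr1:207963691-207963742, minus strand: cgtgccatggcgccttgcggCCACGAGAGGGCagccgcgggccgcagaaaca
ENSG00000288626, chr1:147627657-147627708, minus strand: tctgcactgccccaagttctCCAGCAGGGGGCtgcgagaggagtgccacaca
FARP1, chr13:98445489-98445540, plus strand: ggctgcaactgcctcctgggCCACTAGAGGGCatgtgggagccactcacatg
IFNAR1, chr21:33361396-33361447, minus strand: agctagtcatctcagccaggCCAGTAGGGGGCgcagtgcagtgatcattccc
CASR, chr3:122258961-122259012, minus strand: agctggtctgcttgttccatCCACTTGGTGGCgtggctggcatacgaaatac
YY1, chr14:100246999-100247050, minus strand: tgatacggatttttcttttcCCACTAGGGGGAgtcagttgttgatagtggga
INSM1, chr20:20435623-20435674, plus strand: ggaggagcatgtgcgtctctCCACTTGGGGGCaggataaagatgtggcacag

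The windows of the non-senescent list were these.
FMOD, chr1:203340223-203340274, plus strand: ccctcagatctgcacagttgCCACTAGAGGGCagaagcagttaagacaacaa
LRRK1, chr15:101007122-101007173, minus strand: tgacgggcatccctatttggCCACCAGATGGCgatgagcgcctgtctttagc
DBN1, chr5:177456511-177456562, minus strand: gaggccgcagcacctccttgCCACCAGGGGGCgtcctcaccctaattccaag
TUBA1C, chr12:49235317-49235368, minus strand: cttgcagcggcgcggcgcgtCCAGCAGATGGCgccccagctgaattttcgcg
INSM1, chr20:20360558-20360609, plus strand: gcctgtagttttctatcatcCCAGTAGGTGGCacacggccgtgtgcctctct
CACNA1D, chr3:53710330-53710381, minus strand: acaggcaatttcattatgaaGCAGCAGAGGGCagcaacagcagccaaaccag
RFX6, chr6:116969368-116969419, minus strand: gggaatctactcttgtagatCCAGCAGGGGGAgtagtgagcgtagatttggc
BTG2, chr1:203281246-203281297, plus strand: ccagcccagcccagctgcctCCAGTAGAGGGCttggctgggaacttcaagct

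The contrast between the states rests on H3K27ac and H3K4me1 in the same cells, since both marks defined the enhancers. An overlap with an H3K27ac peak, found for 100% of the members of both lists, is therefore a description. The CTCF values are the authors' mean over the libraries of both states of reads in a peak divided by size factors, termed mean count below. They carry no contrast between states and no error between libraries, so whether CTCF binding itself differed between senescent and non-senescent cells was not tested here. Intervals are 95% intervals over peaks and cover counting error only: peaks of 1 genome are not replicates of a state.

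CTCF peaks were about as frequent in the enhancers of either state. Of 2680 senescent enhancers that overlapped no non-senescent one, 468 held a CTCF peak away from start sites (17.5%, Wilson interval 16.1 to 18.9). Of 4371 non-senescent enhancers that overlapped no senescent one, 723 did (16.5%, 15.5 to 17.7). These intervals overlap, and the larger number of members in the non-senescent list goes with its larger number of enhancers. Enhancers that overlapped the other state held a CTCF peak more often, in 25.4% (24.5 to 26.2) of 10396 senescent and 24.9% (24.0 to 25.7) of 10515 non-senescent regions.

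Width moved with that difference. The enhancers of 1 state alone had median widths of 1570 bp (senescent) and 1573 bp (non-senescent), against 2822 and 2696 bp for those that overlapped the other state. Per megabase the order turned round: enhancers of 1 state alone held 103.9 and 97.8 CTCF peaks per Mb, and overlapping enhancers 83.2 and 86.7. These values count any overlap of 1 bp, which weighs more in narrow enhancers. By peak centre they were 88.59 and 81.44 against 76.4 and 79.55, so that the non-senescent values lay close together. Among enhancers wider than 2500 bp, the centre of a CTCF peak lay in 18.9% (15.3 to 23.0) of the senescent and 20.5% (17.6 to 23.7) of the non-senescent enhancers of 1 state alone, and in 28.0% of the overlapping enhancers of both states. Among those of at most 1500 bp the shares were 13.2% (11.4 to 15.2) and 11.1% (9.79 to 12.5), against 16.2% and 15.0%.

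Not every member lay in an enhancer that was absent from the other state. The enhancer itself overlapped none of the other list for 483 of the 640 senescent and 756 of the 851 non-senescent members. The other 157 and 95 lay in a stretch of an enhancer that reached further in 1 state than in the other, a median of 404 and 331 bp from the nearest enhancer of the other state. For the members in enhancers without overlap this gap was 33608 and 32456.5 bp. The median H3K27ac mean count was 644 and 515 at such edges, against 153 and 158 in enhancers without overlap. This order is a description, since H3K27ac in each state defined the split and the count is a mean over both states; the H3K27ac peaks at the edges were also wider (medians 5208 and 4559 bp, against 1996 and 2041.5 bp). Their CTCF signal stood lower in the senescent list, with a median mean count of 29.3 (22.6 to 43.3, n = 157) against 47.3 (39.6 to 60.3, n = 483), though these intervals overlap, and the non-senescent medians were 41.5 and 50.2.

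The 1 bp rule also admitted peaks that only touch an enhancer. The centre of the peak lay inside the enhancer for 80.2% of the senescent and 79.6% of the non-senescent members, and the whole peak did for 50.0% and 48.3%. The smallest overlaps were 2 and 4 bp, and 28 and 38 members had under 10% of their length in the enhancer. Centres in the inner part of the enhancer, at most 0.5 of the way from its middle to its edge, made up 45.3% (41.5 to 49.2) and 50.8% (47.4 to 54.1).

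**Figure D1:**
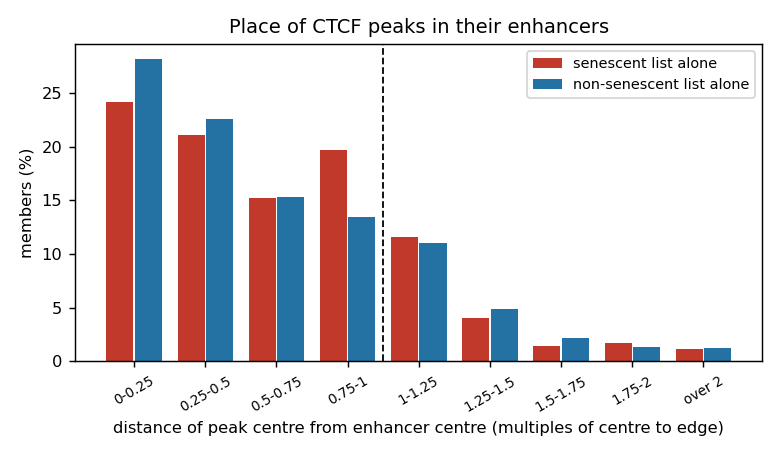
Share of the 640 senescent (red) and 851 non-senescent (blue) members, in percent, by the distance of the peak centre from the enhancer centre as a multiple of the distance from that centre to the edge; the dashed line marks the enhancer edge. In the bin next to the centre lay 24.2% and 28.2%, and just inside the edge (0.75 to 1) 19.7% and 13.5%.

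CTCF signal varied widely among the members, as it did among the other peaks away from start sites. A mean count of at least 50 was reached by 46.2% of senescent and 49.5% of non-senescent members. The shares were 43.3% for peaks in enhancers of both states and 54.5% for peaks in no enhancer. The median mean count was 42.9 (order-statistic interval 36.8 to 51.3) in the senescent list and 48.6 (42.6 to 60.1) in the non-senescent list, and these intervals overlap. Peaks in enhancers of both states had a median of 38.0, and peaks in no enhancer one of 62.2. The middle 50% of values ran from 16.5 to 163 and from 19.6 to 180, so the spread within either list was far wider than the gap between their medians. Peaks were also narrower in enhancers, with medians of 724 and 798 bp, against 707.5 bp in both lists and 861 bp in none. Per kb of peak the medians came closer, at 61.5, 66.8, 57.0 and 71.7.

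The 10 strongest members, 5 from each list, lay from 4134 to 86768 bp from a start site, and all but MTFR2 and UBE2F held a core match with at most 1 mismatch. Of these 10 enhancers only that at FARP1 overlapped one of the other state, and its member lay 2132 bp from it. In the senescent list they were nearest to ALPI, an intestinal alkaline phosphatase (mean count 851), CD34, a surface glycoprotein of blood progenitors (676), MTFR2, a mitochondrial fission regulator (630), the unnamed gene ENSG00000288626 (594) and FARP1 (531). In the non-senescent list they were nearest to FMOD, a collagen-binding proteoglycan (1662), UBE2F, a NEDD8-conjugating enzyme (1374), LRRK1, a protein kinase (1348), DBN1, the actin-binding drebrin (1176), and TUBA1C, an alpha-tubulin (927). Each of the 5 non-senescent values was above the highest of the senescent list. The widths ran from 1959 to 4815 bp and from 2131 to 5922 bp, and counts grow with width.

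A match to the core was more common among strong members than among weak ones in both lists, though the signal with and without it overlapped. With at most 1 mismatch, 36.6% (32.9 to 40.4) of the senescent and 39.5% (36.3 to 42.8) of the non-senescent members held it, against 8.12% and 8.23% of windows of equal length moved by 10 kb. With no mismatch the shares were 8.59% (6.66 to 11.0) and 11.4% (9.43 to 13.7), against 0.625% and 0.47% of the moved windows. Over all CTCF peaks of the series, 47.2% held the core with at most 1 mismatch and 13.5% with none. Per the methods, the authors had filtered all CTCF peaks for a CTCF motif with a scoring model, which the shorter core used here does not reproduce, so a peak without a core match may still hold a motif by their model. Yet the lowest GC content among peaks in no list was 0%, where no such motif can lie. The peaks used here thus need not all have passed that filter.

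Members with the core (at most 1 mismatch) had a median mean count of 139 (senescent, n = 234) and 165 (non-senescent, n = 336). Members without it had 27.7 (n = 406) and 29.2 (n = 515). A mean count of at least 50 was reached by 71.4% (65.3 to 76.8) and 78.0% (73.2 to 82.1) of those with the core and by 31.8% and 30.9% of those without. The same order held in both lists together (126 against 26.0) and outside enhancers (115.5 against 31.1). Wider peaks offer more room for a match, and the members with a core were wider, with a median of 1265.5 bp in the senescent list against 589 bp without.

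**Figure D2:**
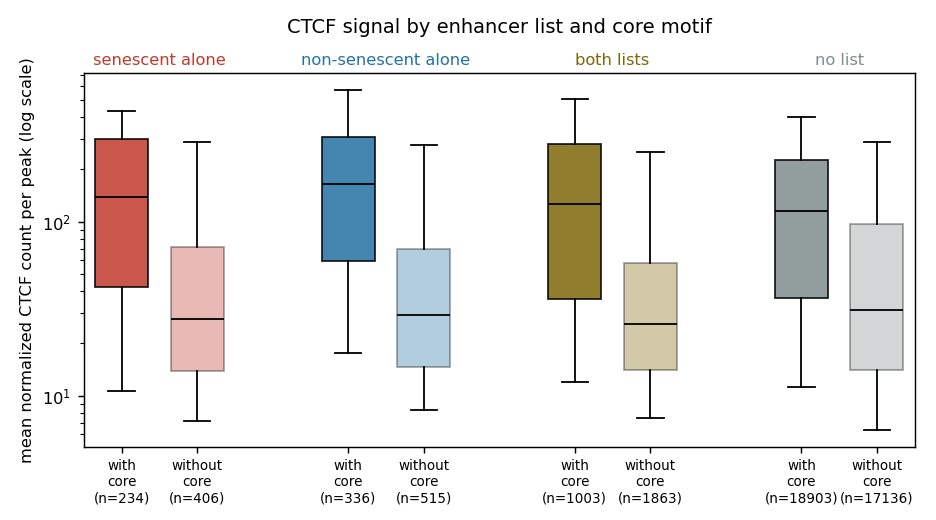
Mean normalized CTCF count per peak (log axis) for peaks over 2 kb from start sites, by enhancer list and by whether the peak held the core with at most 1 mismatch; boxes span the quartiles with the median as a line, whiskers the 5th to the 95th percentile, and n counts peaks. In each of the 4 classes the median of peaks with the core lies above that of peaks without it, and the boxes overlap.

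Peaks outside enhancers held the core more often than members did, except among the strongest peaks. All 40396 peaks away from start sites were divided into 4 bands at the quartiles of their mean count. In the lowest band, below 20.01, the core was present in 17.2% (12.5 to 23.2) of the senescent members, 10.6% (7.17 to 15.4) of the non-senescent members and 14.8% (12.6 to 17.3) of peaks in both lists. In that band 29.6% (28.7 to 30.6) of peaks in no enhancer held it. In the same order of classes, the shares in the second band were 24.6%, 26.1%, 24.0% and 44.2%. In the third band, from 58.8, they were 46.4% (37.9 to 55.1), 47.3% (40.1 to 54.5), 46.2% (42.0 to 50.3) and 60.8% (59.8 to 61.8). In the highest band, above 174, the shares were 66.4% (58.6 to 73.5), 76.1% (70.1 to 81.3), 71.7% (67.9 to 75.2) and 73.9% (73.0 to 74.8), with the senescent interval reaching just into the last. At matched signal the intervals of the senescent and non-senescent members overlapped in each band.

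**Figure D3:**
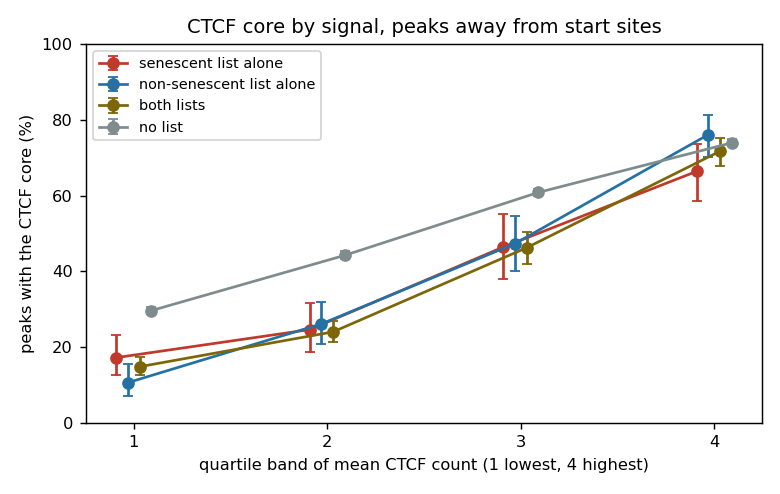
Percent of peaks over 2 kb from start sites that hold the CTCF core with at most 1 mismatch, by quartile band of mean CTCF count (1 lowest), for members of the senescent list (red), members of the non-senescent list (blue), peaks in both lists (brown) and peaks in no list (grey); bars are 95% Wilson intervals. The 3 enhancer classes run close together, below the grey points in bands 1 to 3, and meet them in band 4.

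The core match lay inside the enhancer for most members that had one, and beside it for the others. Of the members with a core, the match was wholly inside the enhancer for 160 of 234 in the senescent list (68.4%, 62.2 to 74.0) and 244 of 336 in the non-senescent list (72.6%, 67.6 to 77.1). Of the bases of the same peaks, 61% and 62.1% lay in the enhancer, which is below the share of matches inside in either list. Matches outside stood a median of 215 and 286 bp away from it. The signal gave no clear order by this place, since the intervals overlapped in both lists. With the match outside, the median mean count was 181 (120 to 247) against 107 (85.2 to 153) inside in the senescent list, and 163 (141 to 202) against 178 (108 to 218) in the non-senescent list.

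The printed windows show both arrangements. The ALPI core stood 229 bp outside its enhancer and the LRRK1 core 1394 bp outside, whereas the cores at CD34, FARP1, FMOD, DBN1 and TUBA1C lay within theirs. The core of the stronger non-senescent INSM1 member began 24 bp past the end of its enhancer.

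Within the peaks, the best match lay at most 100 bp from the centre for 70.9% (64.8 to 76.4) of the senescent and 61.9% (56.6 to 66.9) of the non-senescent members that had one. CTCF acts with a direction, so the strand of the motif was set against the nearest start site where a peak held exactly 1 match. The motif pointed toward that start site in 104 of 197 senescent members (52.8%, 45.8 to 59.6) and 129 of 270 non-senescent members (47.8%, 41.9 to 53.7). Both intervals hold 50%, the value of no preference.

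Motifs of other factors were counted in the 400 bp around each peak centre, on both strands: AP-1 (TGANTCA), the dimer of FOS and JUN family proteins; NEUROD (CAGATGG), an E-box of the neuroendocrine factor NEUROD1; FOX (TGTTTAC), read by forkhead factors such as FOXA2; E2F (TTCCCGC), of the cell-cycle factors held back by Rb; and HNF1, of the hepatocyte nuclear factors. The E-box is contained in some forms of the CTCF core, so that 1 stretch can count for both. The NEUROD E-box was present at 12.03% (9.73 to 14.8) of the senescent and 15.7% (13.5 to 18.3) of the non-senescent members. It stood at 15.4% (14.1 to 16.7) in both lists and at 11.1% (10.7 to 11.4) in none. The non-senescent members and the peaks in both lists thus lay above peaks outside enhancers, while the interval of the senescent members held the value of the latter. Among peaks without a CTCF core the shares were 11.8% (9.03 to 15.3), 15.9% (13.0 to 19.3), 15.5% (13.9 to 17.2) and 9.1% (8.68 to 9.54).

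AP-1 motifs differed less. They were found at 12.8% (10.4 to 15.6) of the senescent and 13.4% (11.3 to 15.8) of the non-senescent members, and at 11.9% and 11.2% of peaks in both lists and in none. The FOX motif was present at 6.41% (4.76 to 8.58) and 8.58% (6.88 to 10.7), against 8.13% (7.18 to 9.19) and 5.99% (5.75 to 6.24). E2F motifs were rare, at 2.34% (1.43 to 3.83) of senescent and 4.11% (2.97 to 5.67) of non-senescent members. They stood at 3.18% (2.59 to 3.88) in both lists and at 2.11% (1.97 to 2.26) in none. FOX and E2F thus showed the same order as NEUROD. Non-senescent members and peaks in both lists lay above peaks in none, whose value the senescent interval held. HNF1 motifs were found in 6 and 7 members (0.938% and 0.823%), against 1.22% and 0.472%. For each of these motifs the intervals of the senescent and non-senescent lists overlapped. Over all CTCF peaks of the series the shares were 10.5% for NEUROD, 10.2% for AP-1, 5.63% for FOX, 3.63% for E2F and 0.488% for HNF1.

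**Figure D4:**
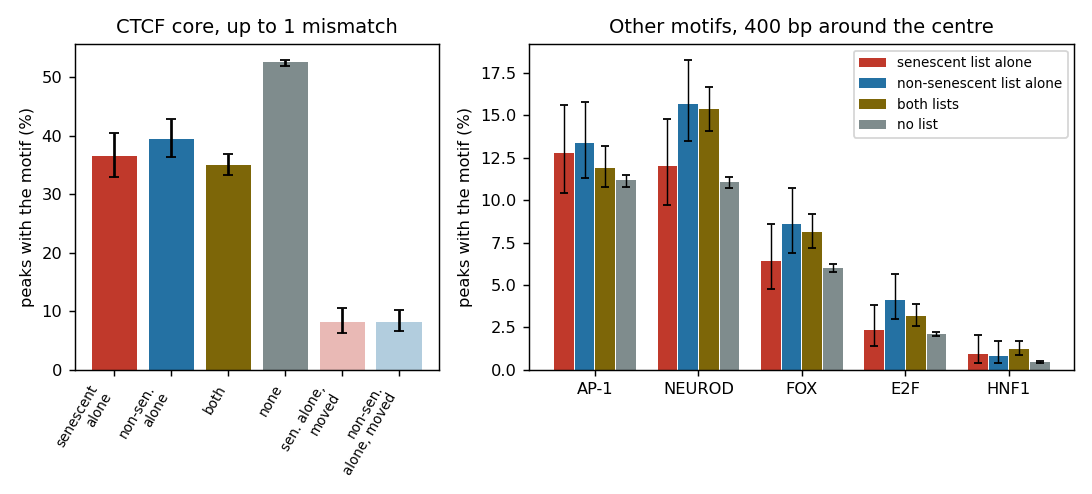
Percent of peaks with the CTCF core with at most 1 mismatch in the whole peak (left; pale bars are the same windows moved by 10 kb) and with other motifs in the 400 bp around the centre (right), by enhancer list; bars start at 0 and error bars are 95% Wilson intervals. Members hold the CTCF core more often than moved windows and less often than peaks in no list. The NEUROD bars of the non-senescent members (15.7%) and of peaks in both lists (15.4%) are about equal, with overlapping intervals.

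The base composition and surroundings of the members were compared next. Their median GC content was 46.3% (45.6 to 47.4) in the senescent and 47.9% (47.1 to 48.6) in the non-senescent list, between 49.6% for peaks in both lists and 43.6% for peaks in none. The centre lay in an intron for 53.8% (49.9 to 57.6) of senescent and 46.9% (43.6 to 50.2) of non-senescent members, and between genes for 40.0% (36.3 to 43.8) and 48.5% (45.2 to 51.9), where the intervals do not overlap. In enhancers without overlap the intergenic shares came to 44.9% (40.5 to 49.4) and 49.2% (45.7 to 52.8), and their intervals did overlap. The median distance to a protein-coding start site was 30659.5 (26777 to 36241) and 32934 bp (29769 to 38626). It was 32755.5 bp (30705 to 35392) for peaks in both lists and 36377 bp (35600 to 37069) for peaks in none. The intervals of the senescent and non-senescent members overlapped each other and those of the other classes. Those of peaks in both lists and in none did not overlap. The median gap to the next CTCF peak was 11109.5 and 9766 bp, against 8679.5 bp in both lists and 13455 bp in none.

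The H3K27ac count at the members follows from how they were chosen, since a mean over both states is taken where 1 or both states had an enhancer, and is given as a description. The H3K27ac peak under a member had a median mean count of 196 (182 to 219) in the senescent and 171 (161 to 181) in the non-senescent list, against 637 (605 to 663) in both lists, where the H3K27ac peaks were wider (median 4209 bp, against 2346 and 2185 bp). In enhancers without overlap the medians were 153 (147 to 169) and 158 (149 to 168). Rb, the retinoblastoma protein that represses E2F genes in growth arrest, was represented by 2435 regions specific to senescent cells. They overlapped 1 senescent (0.156%) and 2 non-senescent members (0.235%), 13 peaks in both lists (0.454%) and 46 peaks in none (0.128%).

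By nearest gene, the members spread over 577 genes in the senescent list and 752 in the non-senescent list. In all, 92 genes were nearest to members of both lists, which is 15.9% of the former and 12.2% of the latter. Of the lists of related genes examined, those for glucose sensing and insulin secretion held the most members, 16 of 164 CTCF peaks away from start sites (9.76%), against 3.69% over all genes. Among CTCF peaks in any listed enhancer, however, members made up 16 of 47 near these genes (34.0%), against 34.2% over all genes, so the share of peaks in enhancers of 1 state was near the background. The members are given below by the role of the gene.

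Around genes of glucose sensing and insulin secretion, 8 members fell in each list. On the senescent side the strongest lay in an intron of CASR, the calcium-sensing receptor, with a mean count of 225, at chr3:122258321-122259725, and held a core 1 letter off the motif. It lay at one end of a 14605 bp enhancer of the senescent cells that overlapped 2 non-senescent enhancers, and stood 1027 bp from the nearer of them. A weak non-senescent member (9.93) lay at the other end of the same locus, in an intron of CASR, so the gene had members of both lists. The next were PTPRN2, a protein of dense-core vesicles (104), and SYT7, a calcium sensor of exocytosis (62.7), both in enhancers of senescent cells alone.

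On the non-senescent side the strongest lay in an intron of CACNA1D, the pore subunit of an L-type calcium channel, at chr3:53709634-53710954, with a mean count of 269. Its enhancer, 2694 bp wide, held 3 members, the most of any non-senescent enhancer without overlap, and the other two had mean counts of 13.97 and 11.97 and no core. The core of the strong peak lay 299 bp outside the enhancer. A senescent enhancer lay 3403 bp from that peak. PCSK1, a prohormone convertase of insulin granules (78.7), and SNAP25, a membrane fusion protein (33.1), followed, both without a core.

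**Figure D5:**
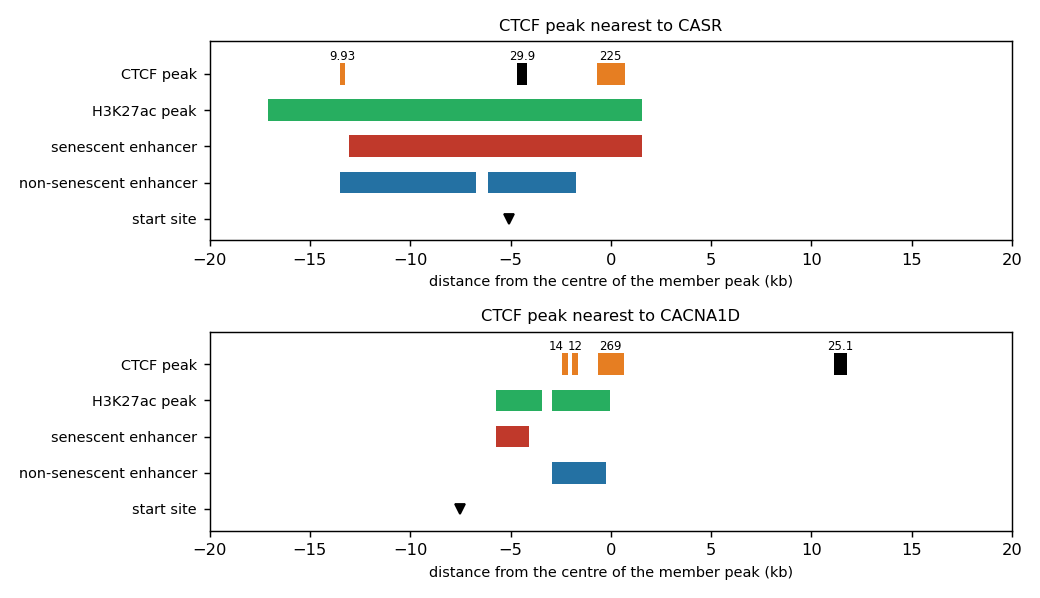
Maps of the strongest senescent member near CASR (top) and non-senescent member near CACNA1D (bottom), in kb from the centre of the peak: CTCF peaks with their mean count (members of either list orange, others black), H3K27ac peaks, enhancers of each state and protein-coding start sites (triangles). At CASR the peak with a mean count of 225 lies in the part of the senescent enhancer that extends past the non-senescent ones, the orange peak with 9.93 is a member of the non-senescent list, and at CACNA1D the peak with 269 sits on the edge of a non-senescent enhancer.

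Beta-cell transcription factor genes had 3 senescent and 7 non-senescent members, 10 of 150 peaks (6.67%). Among peaks in listed enhancers the share was 10 of 29 (34.5%), near the 34.2% over all genes. The senescent 3 were weak: FOXO1, a forkhead factor of insulin signalling (26.95), MAFA, an activator of the insulin gene (10.8), and INSM1, a zinc finger factor needed for endocrine differentiation (7.93). The MAFA member stood 4030 bp from the start site. Those of FOXO1 and INSM1 stood 325843 and 67434 bp away, the latter in an intron of RALGAPA2. All 3 senescent members lay in enhancers that also overlapped one of the other state, and each was within 1071 bp of it. The strongest non-senescent members were nearest to INSM1 (370), RFX6, which is needed to form endocrine cells (216), and NKX6-1, a beta-cell identity factor (58.6). They stood 6434, 91525 and 78521 bp from the start sites. These 3 lay in enhancers without overlap. INSM1 thus had members of both lists, with mean counts of 370 and 24.2 on the non-senescent and 7.93 on the senescent side.

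Genes of growth control had 6 members in all. Cell-cycle genes had 2, both non-senescent, of 46 peaks (4.35%): MYBL2, a transcription factor of dividing cells (47.9), and AURKB, a mitotic kinase (35.3), the latter with an E2F motif. In listed enhancers they made up 2 of 6 peaks (33.3%), against 34.2% over all genes. The senescence and p53 list had 4 of 43 (9.3%), and 4 of 12 in listed enhancers (33.3%). On the senescent side were HMGA2, a chromatin protein (47.2), TERT, telomerase, which the transgene also encodes (15.4), and CDKN2C, an inhibitor of CDK4 and CDK6 (11.2). The non-senescent one was BTG2, an antiproliferative target of p53 (42.6), in an enhancer of 7531 bp under a strong H3K27ac peak (10089) and with a core with no mismatch.

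Genes of interferon signalling and antigen presentation had 3 members of 39 peaks (7.69%), and 3 of 6 in listed enhancers (50.0%). Over all genes these shares were 3.69% and 34.2%. The strongest of the 3 members was senescent, 35103 bp from the start of IFNAR1, a subunit of the type I interferon receptor, with a mean count of 417 and a core with no mismatch inside the enhancer (chr21:33360078-33362292). Secretory and matrix genes had 5, all non-senescent, of 86 peaks (5.81%), and 5 of 9 in listed enhancers (55.6%). They were led by COL4A1, a basement membrane collagen (218, 30588 bp from the start site). IGFBP7 (10.5) and VEGFA (7.87) were far below, and their members stood 1650915 and 153554 bp from the start sites. AP-1 and immediate early genes had 2 in each list, 4 of 50 peaks (8.0%) and 4 of 10 in listed enhancers (40.0%). The senescent ones were FOSL2 (169, 236464 bp away in an intron of BABAM2) and MYC (12.7, 62406 bp away). The non-senescent ones were MYC (41.4, 459283 bp away) and MAF (22.5, 9824 bp away). Of the loop and boundary proteins, only YY1, a zinc finger protein that links enhancers to promoters, had a member, a senescent one in its own intron (139). It was 1 of 32 peaks (3.12%), and the only peak of that list in a listed enhancer. With so few peaks in listed enhancers, no difference of these lists from the share over all genes can be read.

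Enhancers without overlap rarely held several members: 14 of the 468 senescent and 33 of the 722 non-senescent ones with a member did. The senescent one with the most held 3 and was nearest to TENM3, at least 2084098 bp away, with mean counts of 69.9, 13.5 and 25.1. At the limit of 2 kb, the members just inside were nearest to RTL1 (2052 bp, mean count 186) and GET4 (2096 bp, 280). Those just outside were EMILIN1 (1940 bp, 9.35) and WSB2 (1907 bp, 128).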

How the data were processed

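Per the labels and the study's methods, the authors removed adapters and poor bases (Trim Galore), mapped reads to hg38 (Bowtie2), found CTCF peaks with MACS2 and kept those with a CTCF motif (FIMO), found H3K27ac peaks with HOMER against input, and compared read counts in peaks with DESeq2; versions are not given in the sources used here. The deposited signal values used are the authors' means of normalized counts, 1 mean per peak over the libraries of both states together, 3 of each. They have no error between libraries, and the depth of each library is unknown; the means sum to 6136424 over CTCF peaks. The deposited fold changes, their errors, test scores and p-values hold the authors' own comparison and were not used. A planned test of senescent against non-senescent CTCF counts therefore could not be run. Enhancers and Rb regions are deposited positions without values. How libraries were merged is not given. Whether every deposited CTCF peak passed the motif filter is unclear, since the lowest GC content was 0%.

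Positions were read as 0-based BED intervals and are printed 1-based. Overlaps, distances to GENCODE 44 start sites, GC content and motif matches were computed from hg38 with Python 3.11.15, pandas 2.3.3, numpy 2.4.6, scipy 1.17.1 and pysam 0.24.0, and checked on simulated data. All gene names in the lists matched. Repeats were not assessed. Members, gene lists and tests were chosen with earlier results of these data known. Named were, in each list, the 5 strongest members, the 3 enhancers without overlap with the most members, up to 3 genes per gene list, and the peaks nearest to the 2 kb limit; ACOT11, ST6GALNAC5, CYB561D1 and EBF3 also met the rule and had no further result. Some members that met the rule are not reported here.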

Additional observations from a re-analysis of the deposited data

How the results depend on the processing

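No paired analysis was possible because the values used are means over both states, with no value per library, and for the same reason no replicate could be left out. Peaks, not libraries, set every interval, and no difference in CTCF binding between states can be read from them. Of 27 alternatives, 26 kept the order of the lists. The exception was H3K27ac overlap, equal by construction and 87.2% (senescent) against 88.6% when the peak centre had to lie inside the H3K27ac peak. Most alternatives reuse the same peaks or a part of them, so the order is largely carried over. It also says nothing on size, since many of the ordered values had overlapping intervals between the lists. A mean count of at least 50 left 296 and 421 members, raised the median mean count to 177 and 183, and raised the share with the core (no mismatch) to 17.6% and 20.4%. With at most 1 mismatch that share was 36.6% and 39.5%. Per kb of peak the median count was 61.5 and 66.8. By peak centre, 15.0% and 14.0% of the enhancers of 1 state alone held a CTCF peak. In 400 bp around the centre the GC content was 47.5% and 48.8%. Over whole peaks the motif shares were 24.5% and 25.3% for AP-1, 14.7% and 15.0% for FOX, 20.8% and 26.8% for NEUROD, and 4.84% and 7.17% for E2F. The other 30 values stayed within the interval of the chosen setting or, for counts, within 1.5 times.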

Other observations

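The senescent share of the members in enhancers without overlap was 39.0% (483 senescent and 756 non-senescent), against 38.0% of the enhancers without overlap themselves. It varied among chromosomes, with few members on each and no test made. On chromosome 10 it was 46.6% (27 senescent and 31 non-senescent members), where 35.8% of such enhancers were senescent, and on chromosome 15 it was 25.8% (8 and 23), where 32.9% were.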
